A study of Mus musculus with 4 samples.

Results

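The 9 genes described here encode ligands and receptors of the epidermal growth factor (EGF) family: the ligands Hbegf, Areg, Ereg, Tgfa and Btc and the receptors Egfr, Erbb2, Erbb3 and Erbb4. They were chosen by family, matched by Ensembl identifier, and all 9 are among the 30406 genes listed in both gene references of the series. Their molecules were counted in droplet libraries of dissociated mouse common bile duct, made with 10x Genomics 3′ v3 chemistry, which reads a unique molecular identifier (UMI) for each captured transcript. The tested library, GOF, carries the label Prom1_BcatGOF and comes from a duct with mosaic gain of function of Ctnnb1, which encodes beta-catenin. It is set against 3 wild-type libraries, WT 1, WT 2 and WT 3. All ducts were untreated, microdissected whole and digested with dispase and a bacterial protease. The labels do not describe the GOF construct beyond its name, and give neither ages nor whether libraries came from separate animals. P-values thus cover no more than the variation among these libraries, which could be technical, and the lone GOF library is assumed to vary like the WT libraries.

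EGF family ligands are made as membrane-anchored precursors and are shed by metalloproteases of the ADAM family. They bind receptor tyrosine kinases of the ErbB family, which pair with one another and signal through RAS, ERK and PI3K. Erbb2 has no known ligand and Erbb3 has little kinase activity, so both work as partners. In epithelia the pathway is known for its part in proliferation and in repair after injury, and in the liver Areg and Hbegf are known as injury-response ligands.

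Ereg, Areg and Btc lie side by side on mouse chromosome 5. In GRCm38 coordinates of GENCODE M21, Ereg spans 91074622 to 91093646 and Areg 91139599 to 91148432, both on the plus strand, and Btc spans 91357261 to 91402994 on the minus strand. The sequence before the start of Areg and of Btc is shown because these neighbours had unlike values within GOF epithelium: Areg was higher in cells with more Wnt feedback genes, and the interval of that ratio spanned 1 for Btc. Both come from RefSeq (GRCm38.p6), cover the 250 bases before the start, and run 5′ to 3′ on the gene's strand with motif matches in capitals.
Areg, chr5:91139349-91139598, plus strand: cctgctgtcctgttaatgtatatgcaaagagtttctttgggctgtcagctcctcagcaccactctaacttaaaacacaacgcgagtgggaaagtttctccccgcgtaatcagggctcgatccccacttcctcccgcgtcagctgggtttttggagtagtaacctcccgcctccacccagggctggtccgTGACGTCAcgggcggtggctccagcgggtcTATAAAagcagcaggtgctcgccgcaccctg
Btc, chr5:91402995-91403244, minus strand: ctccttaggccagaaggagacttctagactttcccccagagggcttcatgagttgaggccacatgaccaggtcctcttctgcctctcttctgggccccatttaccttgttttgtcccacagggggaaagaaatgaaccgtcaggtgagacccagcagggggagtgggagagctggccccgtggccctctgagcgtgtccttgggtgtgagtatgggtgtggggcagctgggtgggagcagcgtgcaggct
The capitals in Areg mark the cyclic AMP response element TGACGTCA at positions -61 to -54 and the TATA element TATAAA at -31 to -26. These motifs and 2 others were searched on both strands from 250 bases before to 50 bases after each start. Of 32851 windows of that length, 1.79% held TGACGTCA, 7.81% the AP-1 motif TGANTCA, 13.6% TATAAA and 3.73% the TCF motif CTTTGAT. Windows were matched for 6 of the 9 genes, and none of the motifs was found in those of Btc, Tgfa, Egfr, Erbb2 and Erbb4. A match is a string of letters and not a measured site.

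The GOF library held 10796 barcodes and 113596685 UMIs, against 2649 to 6253 barcodes and 9558637 to 43737469 UMIs in the WT libraries. Median mitochondrial shares were 3.01% in GOF and 10.1% to 14.8% in WT. The file headers name Cell Ranger 7.0.0 for GOF and 3.0.2 for WT, so the software and the genotype cannot be told apart. Ctnnb1 itself stood at 274 CPM (counts in each 1000000 UMIs) in GOF epithelium and at 450 to 577 CPM in WT epithelium, and 3′ tags do not check a gain-of-function allele. The Wnt feedback gene Axin2 stood at 113 CPM in GOF epithelium, against 3.08, 6.30 and 5.68 CPM in WT 1, WT 2 and WT 3. Cells were sorted into classes by raw counts of lineage markers: 5121 epithelial cells in GOF against 3065, 1497 and 1162 in WT, and 543 fibroblasts in GOF against 102, 224 and 215 in WT. All 7 epithelial markers were detected in the gated cells, which is no check of the gate because they set it. Between 5 and 19 barcodes were shared by any pair of libraries. In a sum over cells, fewer expressing cells and less RNA per cell cannot be told apart.

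In GOF epithelium Hbegf, Erbb4 and Egfr were higher than in WT epithelium, and no member was lower past the threshold. All 9 members could be tested, Ereg through its GOF counts alone, and 3 were called (all higher), where 16.1% of the 15795 genes tested were called in either direction. The members' median log2 difference was 1.09, against 0.00 over all genes tested (edgeR quasi-likelihood test, Benjamini-Hochberg adjustment). That median is the value of Egfr itself. Genes with 100 to 200 kb of intron, as Egfr has, had a median of 0.92, so 1.09 is not read as a shift of the whole family. CPM values are relative to the UMIs of the class in that library, while the log2 differences carry TMM scaling. Scaling by library totals moved the median of all genes by 0.37, and by TMM from genes with at most 5 kb of intron by 0.40. The share of called genes that were higher was 73.6%, and 91.0% and 91.9% under those scalings, with 61.6% by DESeq2.

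Hbegf, a heparin-binding ligand of Egfr and Erbb4, stood at 1243 CPM in GOF epithelium, against 59.5, 98.0 and 102 CPM in WT 1, WT 2 and WT 3. The GOF value lay far above all WT values. The log2 difference was 3.47 ± 0.32 (SE, adjusted p = 0.00379), and it passed the threshold in 12 of 12 alternative settings. After each cell was thinned to 2000 UMIs, 72.9% of GOF epithelial cells held an Hbegf UMI (95% interval 71.6 to 74.2), against 8.55%, 14.4% and 13.9% of WT cells. Unthinned, the shares were 85.7% in GOF and 32.0%, 33.4% and 25.7% in WT.

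Areg, the Egfr ligand amphiregulin, stood at 73.8 CPM (5200 UMIs) in GOF epithelium, against 8.002, 1.93 and 0.158 CPM (286, 23 and 1 UMIs) in WT. GOF was above every WT library, and the WT libraries differed widely among themselves. The log2 difference of 3.85 ± 0.97 missed the threshold (SE, adjusted p = 0.0502). It passed in 10 of 12 alternatives, in each of those that left out 1 WT library with adjusted p of 0.00788 to 0.0195, and the range over all 12 was 0.000184 to 0.188. Thinned shares of cells with an Areg UMI were 8.81% in GOF, against 1.16%, 0.298% and 0 of 812 cells in WT, where 0 allows up to 0.369% (3 counts over these cells).

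Ereg, the ligand epiregulin, was nearly absent from the epithelium, at 0.823 CPM (58 UMIs) in GOF and 0.0560, 0 and 0 CPM (2, 0 and 0 UMIs) in WT. The ratio of the pooled levels was 22.2 with a counting interval of 5.88 to 188. The adjusted p was 0.0630 and fell under 0.05 in 3 of the 10 alternatives that gave a value.

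Tgfa and Btc, which bind Egfr and, for Btc, also Erbb4, were the ligands least apart from WT. Tgfa stood at 37.0 CPM in GOF epithelium, against 27.4, 19.995 and 23.1 CPM in WT. Btc stood at 53.3 CPM in GOF, against 30.4, 27.9 and 22.9 CPM in WT. Both GOF values lay above all WT values, but neither passed the test: the log2 differences were 0.27 ± 0.25 for Tgfa (adjusted p = 0.468) and 0.60 ± 0.21 for Btc (adjusted p = 0.102). Btc passed in 2 of 12 alternatives, both of which changed the scaling.

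Egfr, the receptor shared by these 5 ligands, stood at 40.9 CPM in GOF epithelium, against 16.7, 13.2 and 14.2 CPM in WT. The groups did not overlap, and the log2 difference was 1.09 ± 0.22 (SE, adjusted p = 0.0290). Without WT 2 the call was lost, at a log2 difference of 0.98 and an adjusted p of 0.0895. Egfr holds 154.63 kb of intron, and the 1101 genes with 100 to 200 kb had a median log2 difference of 0.92. Egfr stood at the 56.5th percentile among them.

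Erbb4, a receptor for Hbegf, Btc, Ereg and the neuregulins, stood at 82.1 CPM (5780 UMIs) in GOF epithelium, against 0.755, 2.86 and 0.316 CPM (27, 34 and 2 UMIs) in WT. GOF was again above all WT libraries. The log2 difference was 5.61 ± 0.67 (SE, adjusted p = 0.00704) and passed in 12 of 12 alternatives. Erbb4 spans 68032186 to 69108059 on chromosome 1 and holds 1063.519 kb of intron. The 174 genes with over 500 kb of intron had a median log2 difference of 3.40, and Erbb4 stood at the 75.9th percentile among them. Whether intronic reads were counted in one group only was not tested.

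The partner receptors Erbb2 and Erbb3 had log2 differences below 0, and neither was called. Erbb2 stood at 35.9 CPM in GOF epithelium, against 40.3, 40.0 and 49.7 CPM in WT. Erbb3 stood at 95.4 CPM in GOF, against 87.0, 97.3 and 128 CPM in WT. The GOF value lay below all WT values for Erbb2 and inside the WT range for Erbb3. Log2 differences were -0.65 ± 0.24 for Erbb2 (adjusted p = 0.119) and -0.50 ± 0.29 for Erbb3 (adjusted p = 0.265). Over the alternatives they ran from -0.75 to -0.25 for Erbb2 and from -0.60 to -0.10 for Erbb3.

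Intron length moved with the GOF difference across all genes, from a median of -0.18 for the 4847 genes with 5 to 20 kb to 0.42 for the 1921 genes with 50 to 100 kb. Against genes of like intron length, Hbegf, Areg and Ereg stood at the 94.4th, 95.3rd and 95.7th percentiles. Tgfa stood at the 41.4th, Btc at the 72.2nd, Erbb2 at the 13.8th and Erbb3 at the 29.7th percentile of their ranges. Ereg was tested through its GOF counts alone, so its high percentile is no result. Hbegf and Areg, of which only Hbegf was called, lay near the top of their range, and Egfr and Tgfa near the middle of theirs.

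**Figure D1:**
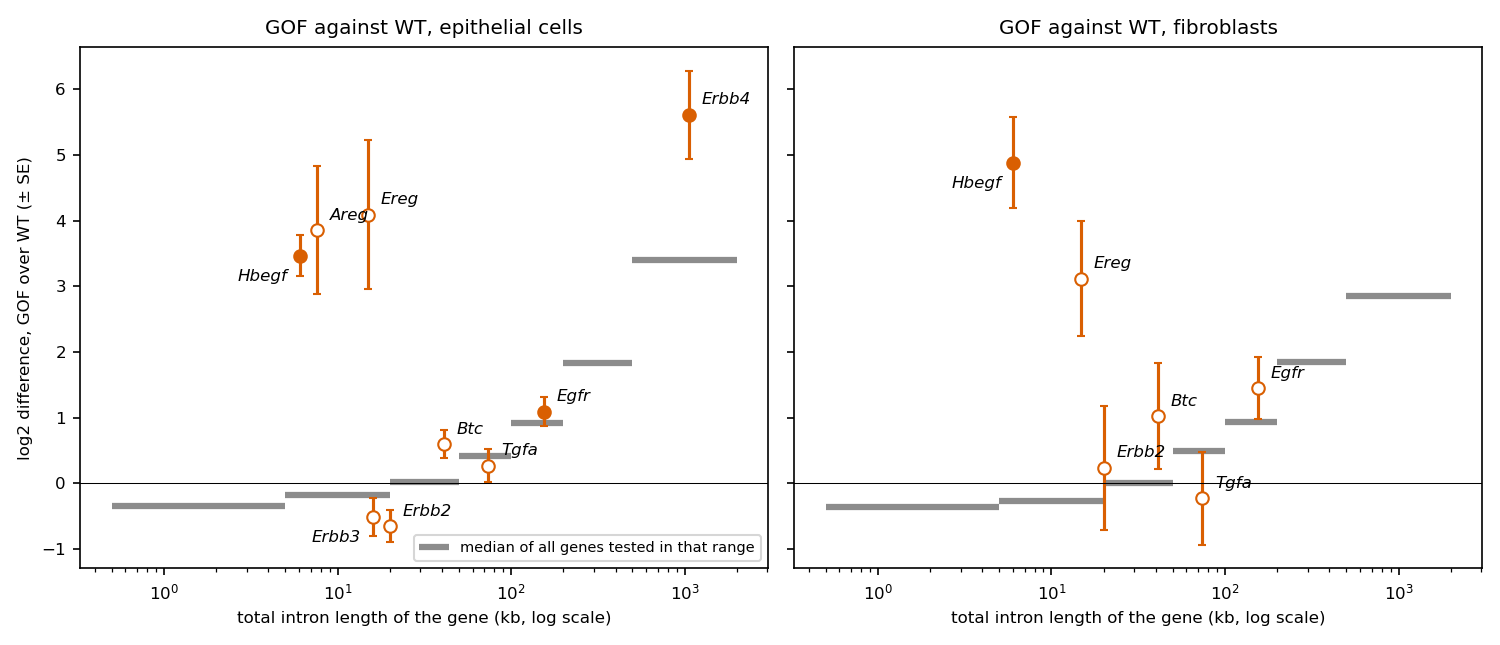
Log2 difference of GOF over WT (y axis, with its SE) against total intron length in kb (x axis, log scale) for the members tested in epithelial cells (left) and fibroblasts (right). Filled points passed an adjusted p of 0.05 (edgeR), and grey bars are the medians of all genes in each intron range. Hbegf lies far above its bar in both classes, and Egfr lies near its own in epithelium. Hbegf in fibroblasts and Ereg in both classes passed the filter on low counts only through GOF. Hbegf in GOF fibroblasts stood beside the keratins as a percentage of its epithelial level, and no expression in fibroblasts is read from it.

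In fibroblasts the receptor Egfr and the ligand Ereg had their highest GOF levels of all classes. Egfr stood at 280 CPM in GOF fibroblasts, against 86.9, 63.4 and 131 CPM in WT. The GOF value was above all WT values, but the log2 difference of 1.45 ± 0.47 did not pass (SE, adjusted p = 0.137). Genes with 100 to 200 kb of intron had a median of 0.93 in that comparison. Thinned shares of fibroblasts with an Egfr UMI were 34.9% in GOF and 17.6%, 10.9% and 24.6% in WT.

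Ereg stood at 32.3 CPM (184 UMIs) in GOF fibroblasts, against 0, 5.90 and 0 CPM in WT, where all 8 UMIs came from WT 2. The adjusted p was 0.0884. It was 0.00522 without WT 1 and 0.00224 without WT 2 (edgeR), where leaving out WT 2 left no WT UMI. Ereg passed the filter on low counts only through GOF, where it is high, so none of these values is read as a call. In mesothelial cells, the lining of the outer surface, Ereg stood at 20.5 CPM (166 UMIs) in GOF and at 0.954, 0.989 and 2.82 CPM in WT, with 1 UMI in each WT library. The mesothelial ratio of pooled levels was 16.5, with a counting interval of 5.56 to 80.9. Egfr in the same mesothelial cells stood at 154 CPM in GOF, against 42.0, 49.5 and 81.9 CPM in WT.

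Of the 9 members, 6 could be tested in fibroblasts and 1, Hbegf, was called (higher), where 4.2% of the 10098 genes tested were called. Hbegf passed the filter on low counts only through GOF, where it is high, so its call is not read against that share. It stood at 46.8 CPM (267 UMIs) in GOF fibroblasts, against 0, 1.47 and 2.34 CPM (3 UMIs in all) in WT. The pooled ratio was 34.7 with a counting interval of 11.7 to 169, and the adjusted p was 0.00682 (edgeR) and 0.0513 by limma-voom. Beside this, Hbegf in GOF fibroblasts was 3.77% of its level in GOF epithelium, where the epithelial keratins Krt8 and Krt18 were 4.12% and 3.11% of theirs. In WT fibroblasts Krt8 was 2.36%, 4.303% and 6.91% of its epithelial level, and Hbegf 0, 1.51% and 2.29%. The epithelial markers summed to 246 CPM in GOF fibroblasts with 7 of 7 detected, against 154 to 369 CPM in WT fibroblasts with 6 or 7 detected. The Hbegf percentage in GOF fibroblasts thus lay between those of the keratins, and no expression in fibroblasts is read from it. The part of epithelial RNA in the call was not tested. Tgfa, Btc and Erbb2 had adjusted p-values of 0.916, 0.600 and 0.932, and the log2 difference of Tgfa changed sign over the alternatives, from -0.54 to 0.15. By DESeq2, 67.1% of the genes called in fibroblasts were higher, against 89.4% by edgeR.

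In macrophages and monocytes 2 members could be tested and neither was called, where 11.7% of 8349 genes were called by edgeR. Neither had an unadjusted p under 0.05, and neither was called by DESeq2 or limma-voom. Hbegf stood at 25.3 CPM in GOF macrophages, against 3.11, 16.7 and 14.5 CPM in WT (log2 difference 1.12 ± 0.63, adjusted p = 0.294). In GOF macrophages that was 2.03% of the epithelial level, beside 2.38% for Krt8 and 1.96% for Krt18. The part of epithelial RNA in the GOF value was not tested. In WT macrophages Hbegf was 5.23%, 17.0% and 14.2% of its epithelial level, on 2, 15 and 5 UMIs, where Krt8 was 3.04%, 2.73% and 5.14%. Erbb3 stood at 2.99 CPM in GOF and 6.22, 3.33 and 14.5 CPM in WT (adjusted p = 0.651). Areg stood at 10.1 CPM (135 UMIs) in GOF macrophages and at 0, 1.11 and 0 CPM (1 UMI) in WT. Its pooled ratio was 19.1 with a counting interval of 3.36 to 758. Of the genes called in macrophages 76.4% were higher, and 90.7% with TMM from short-intron genes and 64.9% by DESeq2.

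The difference between the epithelial and the other-class effect of GOF was tested directly, with the library as a block. A shift common to the 2 classes of one library drops out of it, but medians still differed by intron length. Against fibroblasts the median was 0.06 for genes with 5 to 20 kb of intron and -0.40 for those with over 500 kb. Against macrophages these medians were 0.01 and -0.67. Against fibroblasts no member was called of 9 tested, where 1.17% of 15351 genes were called by edgeR, no member had an unadjusted p under 0.05, and none was called by DESeq2 or limma-voom. Hbegf gave -1.42 ± 0.84 (SE, unadjusted p = 0.0967, adjusted p = 0.998), on 3 WT fibroblast UMIs. Against macrophages 2 of 8 members tested were called, both higher, where 3.58% of 15370 genes were called. The macrophage side of both rests on GOF values beside or under the keratins, at 2.03% of the epithelial level for Hbegf and 1.54% for Btc, and the part of epithelial RNA in these differences was not tested. For Hbegf the log2 difference of the epithelial sums exceeded that of the macrophage sums by 2.33 ± 0.57 (SE, adjusted p = 0.00246), which passed in 7 of 13 alternatives. For Btc it exceeded it by 3.00 ± 0.87 (adjusted p = 0.0213), which passed in 5 of 13. Btc was not called in epithelium, and in macrophages it stood at 0.823 CPM in GOF, against 3.11, 4.45 and 5.80 CPM in WT. Without WT 2 the adjusted p was 0.268 for Hbegf, and for Btc it was 0.0523, 0.178 and 0.130 without WT 1, WT 2 and WT 3. The fit with no replicate block lost both calls. Of the genes called against macrophages 64.6% were higher, against 81.6% with library totals and 41.6% with TMM from short-intron genes, and against fibroblasts 74.3% were higher, with 85.9% under library totals.

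Each of the 5 ligands stood well above the keratins in at least 1 other class of the GOF library, as a percentage of its epithelial level. In T, NK and innate lymphoid cells Areg stood at 124 CPM (69 UMIs) in GOF and at 0 in the WT libraries with enough cells, WT 1 and WT 2. Against a floor of 3 counts over both WT libraries this is at least 5.97-fold higher. Areg in these GOF lymphocytes was 168% of its epithelial level, where Hbegf was 4.34%, Krt8 4.71% and Krt18 3.71%. Regulatory T cells and group 2 innate lymphoid cells are known sources of amphiregulin, and they were not separated here. Areg also stood at 50.8 CPM in the 42 GOF dendritic cells, 68.9% of the epithelial level, where Krt8 was 2.03%. In neutrophils Areg stood at 38.3 CPM in GOF and at 1.04, 0 and 0 CPM in WT, a ratio of 44.9 with a counting interval of 7.74 to 1802. There the keratins were 8.92% and 8.13% of their epithelial level and Areg 51.8% of its own.

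Hbegf in smooth muscle cells and pericytes stood at 306 CPM in GOF, against 17.7 and 60.7 CPM in WT 2 and WT 3. That was 24.6% of the GOF epithelial level, where Krt8 was 4.08% and Krt18 3.89%. Thinned shares of these cells with an Hbegf UMI were 30.8% in GOF, against 0 of 29 cells in WT 2, which allows up to 10.3% (3 counts over these cells), and 10.3% in WT 3. In blood endothelial cells Hbegf stood at 114 CPM in GOF and 11.5, 13.8 and 12.4 CPM in WT, with 1 UMI in each WT library. The ratio was 9.13 with a counting interval of 2.84 to 46.7. Erbb4 lay beside the keratins in GOF fibroblasts and macrophages, at 3.42% and 2.28% of its epithelial level, and at 12.1% in GOF neutrophils.

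Tgfa in lymphatic endothelial cells stood at 23.3 CPM (22 UMIs) in GOF, against 5.49, 14.4 and 6.64 CPM in WT on 1 or 2 UMIs in each library. The counting intervals of GOF (14.6 to 35.3 CPM) and of each WT library overlapped. That was 63.2% of the GOF epithelial level, where Krt8 was 5.01% and Krt18 3.74%. In GOF fibroblasts Tgfa was 30.8% and Btc 24.3% of the epithelial level, both well above Krt8 at 4.12%. Ereg was higher in GOF fibroblasts and mesothelial cells than in GOF epithelium, as given above.

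**Figure D2:**
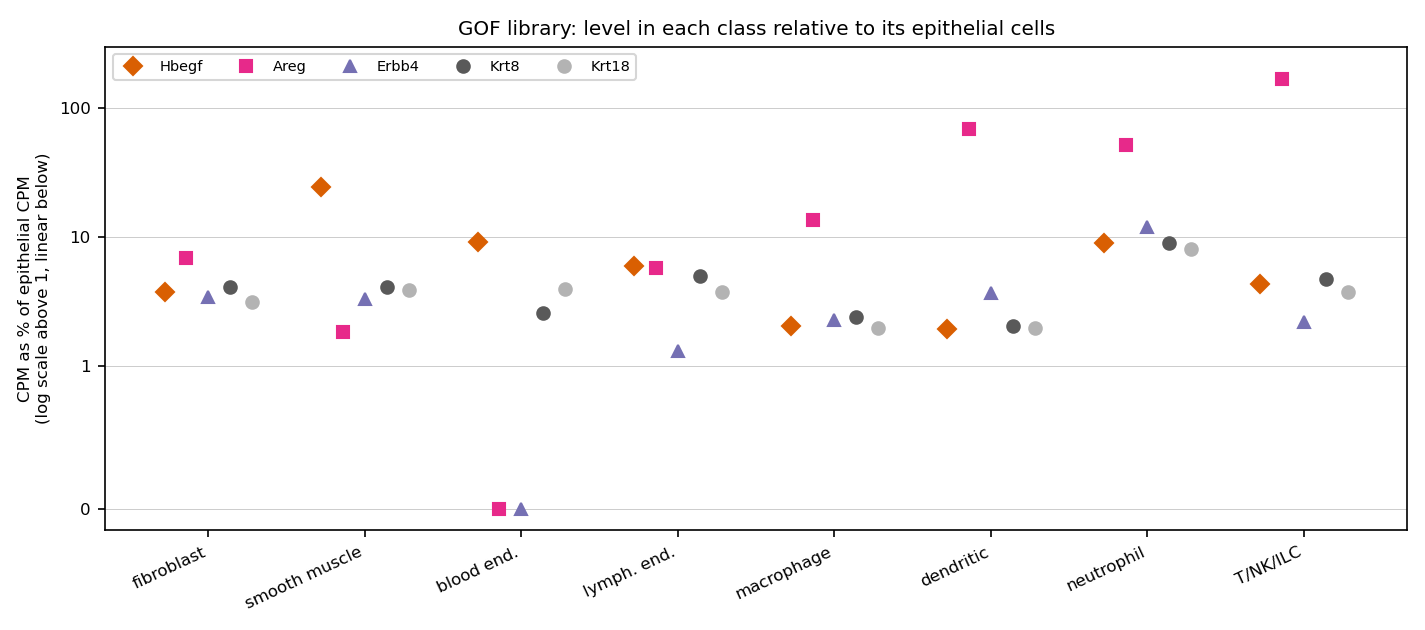
CPM in classes of the GOF library as a percentage of the CPM in GOF epithelium (y axis, log scale above 1). Points are Hbegf, Areg, Erbb4 and the epithelial keratins Krt8 and Krt18, 1 per gene and class. Tuft, mesothelial and B cells are not shown. Areg in T, NK and innate lymphoid cells (168%) and Hbegf in smooth muscle (24.6%) stand above the keratins, and Hbegf in fibroblasts (3.77%) stands beside them.

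Tuft cells, the rare chemosensory cells of the duct epithelium, numbered 217 in GOF and 92, 60 and 55 in WT. Hbegf stood at 795 CPM in GOF tuft cells, against 49.6, 45.5 and 117 CPM in WT. Only 30.1% of thinned GOF tuft cells (63 of 209) held an Hbegf UMI, against 5.49%, 3.70% and 2.08% in WT. The GOF share was below the 72.9% of GOF epithelial cells. Areg stood at 76.5 CPM in GOF tuft cells, against 0.787, 5.35 and 3.34 CPM in WT. Erbb4 stood at 35.0 CPM in GOF tuft cells with no UMI in the WT libraries, at least 22.7-fold higher against a floor of 3 counts over the 3 libraries. Erbb3 stood at 74.3 CPM in GOF tuft cells, inside the WT values of 83.4, 66.9 and 123 CPM. Epithelial marker UMIs did not count against the tuft class, so droplets holding a tuft and an epithelial cell could enter it. Under the stricter gate the GOF tuft class fell from 217 cells and 2745819 UMIs to 182 cells and 1684970 UMIs. The part of epithelial RNA in these tuft levels was not tested.

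**Figure D3:**
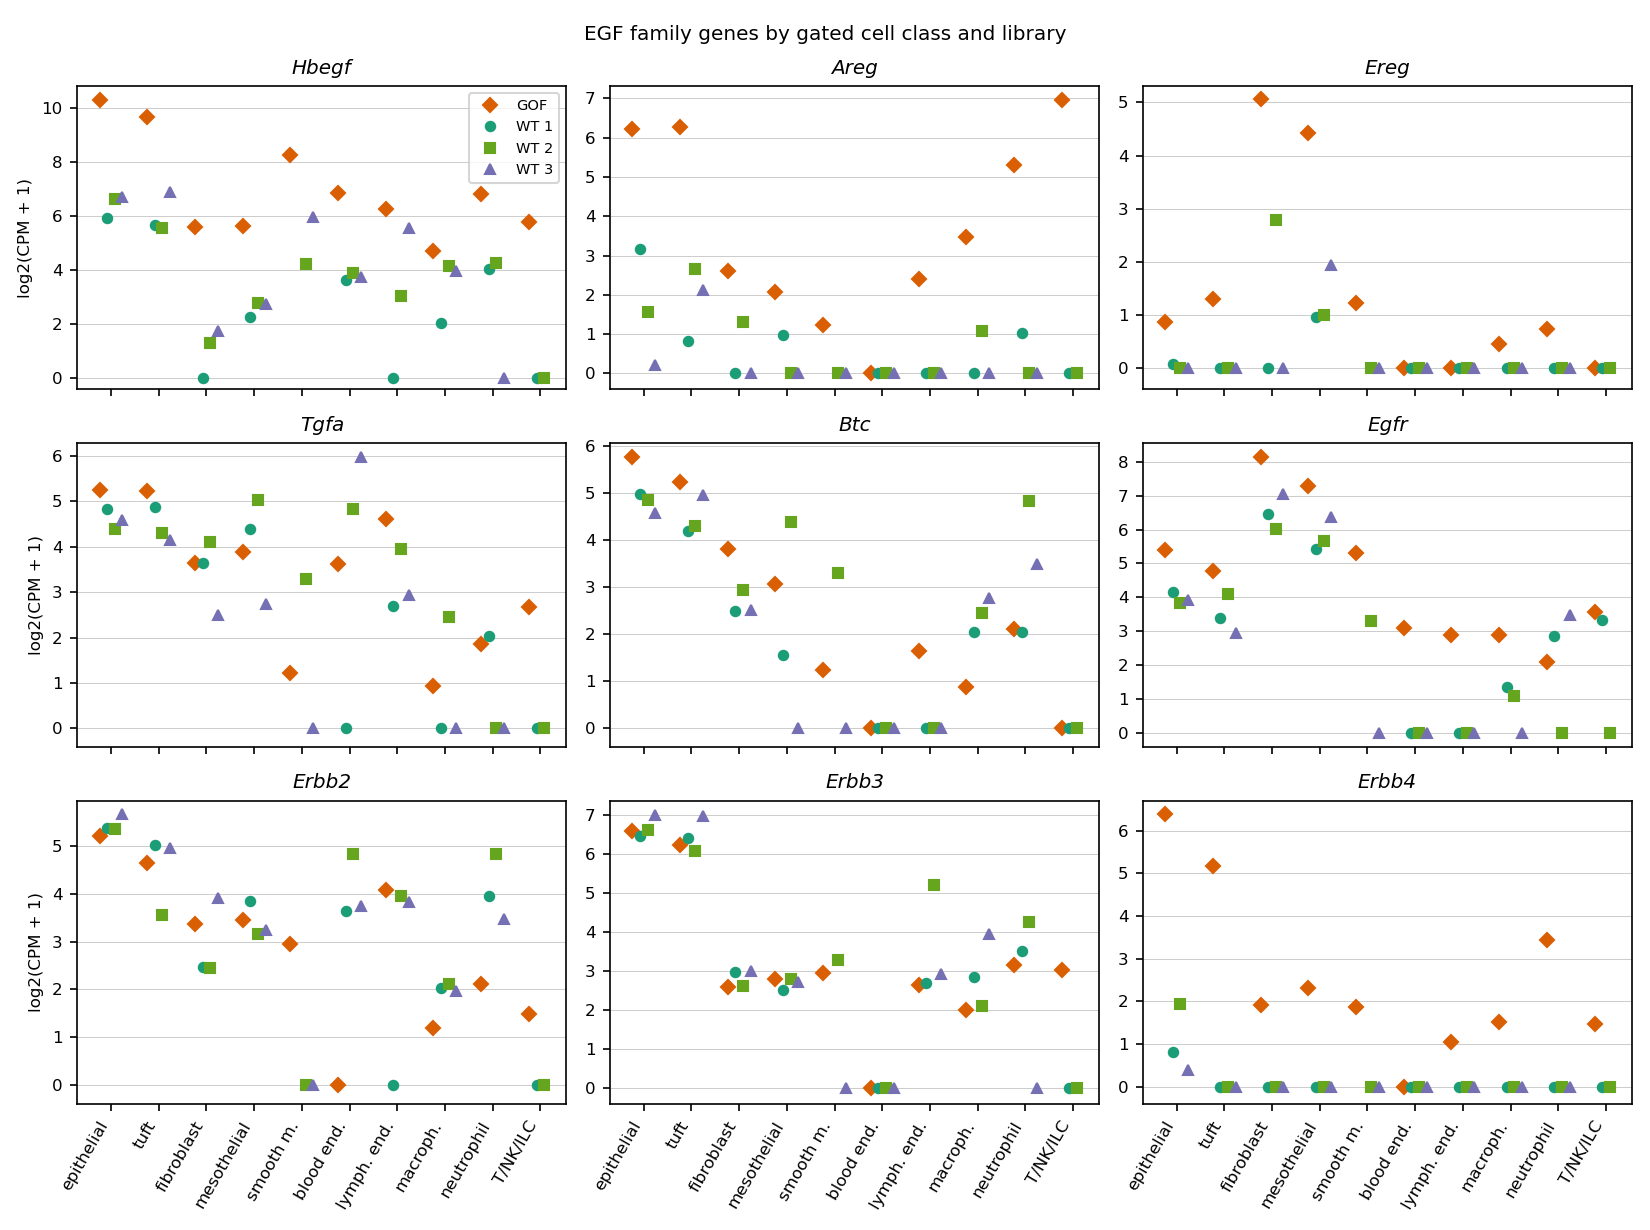
Level of each member as log2(CPM + 1) (y axis) in 10 gated cell classes (x axis), 1 point per library with at least 20 cells of that class. Hbegf, Areg and Erbb4 are higher in GOF than in each WT library in epithelial and tuft cells, Egfr is highest in fibroblasts and mesothelial cells, and Erbb3 is highest in epithelial and tuft cells of all libraries. The part of epithelial RNA in the tuft levels was not tested.

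Within WT ducts the receptors divided the classes. Erbb3 averaged 104 ± 21.2 CPM in epithelium and 91.2 ± 29.1 CPM in tuft cells (SD, n = 3), which overlapped, and the next class, lymphatic endothelium, averaged 16.1 ± 17.3 CPM and did not overlap with tuft cells. Erbb2 averaged 43.4 ± 5.53 CPM in epithelium, above tuft cells at 24.1 ± 11.6 CPM with no overlap. Egfr ran the other way, at 93.8 ± 34.3 CPM in fibroblasts, 57.8 ± 21.2 CPM in mesothelial cells and 14.7 ± 1.82 CPM in epithelium. Fibroblasts and mesothelial cells overlapped, and both lay above epithelium in every library. Erbb4 averaged 1.31 ± 1.36 CPM in WT epithelium and had no UMI in the other 7 classes found in all 3 libraries. Those classes held far fewer UMIs. In each library the upper 95% counting limit of 0 there was 2.72 CPM or more, above the epithelial average, so 0 does not set them apart.

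Among the ligands, Hbegf averaged 86.6 ± 23.6 CPM in WT epithelium and 70.6 ± 40.0 CPM in tuft cells (SD, n = 3), which overlapped. Among the 8 classes found in all 3 libraries, its lowest was fibroblasts, at 1.27 ± 1.18 CPM. Btc averaged 27.1 ± 3.84 CPM in epithelium and 22.0 ± 6.97 CPM in tuft cells. Tgfa averaged 29.9 ± 31.1 CPM in blood endothelium, on 7 UMIs, 23.5 ± 3.72 CPM in epithelium and 21.2 ± 6.21 CPM in tuft cells, with overlap throughout. Areg averaged 3.36 ± 4.11 CPM in epithelium. Ereg averaged 1.97 ± 3.41 CPM in fibroblasts, all of it from WT 2.

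WT epithelium against WT fibroblasts could be tested for 6 members, and 5 were called, 4 higher and 1 lower, where 34.3% of 12242 genes were called. Egfr was lower in epithelium by a log2 difference of -2.52 ± 0.25 (SE, adjusted p = 3.1e-06). Erbb3 was higher by 4.13 ± 0.33 (adjusted p = 4.67e-07), Erbb2 by 2.74 ± 0.36 (adjusted p = 4.15e-05) and Btc by 2.30 ± 0.38 (adjusted p = 0.000318). Hbegf was higher with an adjusted p of 2.43e-07. Its pooled ratio was 54.1 with a counting interval of 18.5 to 262, on 3 fibroblast UMIs. Tgfa did not pass, at 0.97 ± 0.39 (adjusted p = 0.0723). Hbegf, Btc, Erbb2 and Erbb3 had 3 to 14 UMIs in all WT fibroblasts, so they reached the minimum total of the filter on low counts only through the epithelium, where they are high, and the count of calls is not read against the share over all genes.

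WT epithelium against WT macrophages and monocytes could also be tested for 6 members, and 6 were called (higher), where 44.5% of 12038 genes were called. Apart from Hbegf with 22, these members had 2 to 12 UMIs in all WT macrophages and reached the minimum total of the filter only through the epithelium, where they are high, so their number and direction are no result. Erbb3 was higher by 3.93 ± 0.35 (SE, adjusted p = 6.08e-08) and Hbegf by 2.96 ± 0.32 (adjusted p = 9.38e-07). Egfr rested on 2 macrophage UMIs, with a ratio of 14.8 and a counting interval of 4.08 to 122. The other 3 had adjusted p-values of 1.56e-06 to 0.000243.

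The genes most like each member across the 24 WT class sums (8 classes, 3 libraries) were found by Pearson r of log2(CPM + 1) among 9632 genes, as a description, since sums of 1 library share its depth and 1 class its cells. Erbb3 was most like Gm15848 (r = 0.97), Tmem54 (0.93) and Trim46 (0.93). Egfr was most like Pnmal2 (r = 0.93), Ror1 (0.91) and Cacnb3 (0.91). Hbegf was most like Tspan1 (r = 0.85), Fam167a (0.84) and Habp2 (0.83), and Erbb2 like Habp2 (0.80), 2200002D01Rik (0.77) and Slc12a2 (0.76). Btc was most like Spint1 (r = 0.86), Gm42031 (0.85) and Itga2 (0.85), and Tgfa like Pard3 (0.83), Arl5a (0.82) and Cbx5 (0.80). Among the members, Hbegf and Erbb2 had r = 0.71, Btc and Erbb3 0.66, and Hbegf and Egfr -0.19.

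Within the GOF library, epithelial cells were divided by how many of 6 Wnt feedback genes (Axin2, Nkd1, Notum, Lgr5, Sp5 and Tnfrsf19) had a UMI after thinning to 5000 UMIs. Of 3984 cells, 2047 had 0, 648 had 1 and 1289 had 2 or more, or 32.4% (95% interval 30.9 to 33.8). In WT epithelium 1 of 2232, 2 of 513 and 0 of 303 cells had 2 or more. The GOF cells compared with one another come from 1 library made with 1 software version, so there is no test, and intervals cover counting error only. The WT cells set beside them come from other libraries made with another Cell Ranger version. The cells with 0, 1 and 2 or more genes had original medians of 9025, 14217.5 and 13322 UMIs.

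Areg was higher in the cells with more Wnt feedback genes, at 23.9, 78.4 and 138 CPM in cells with 0, 1 and 2 or more. The ratio of 2 or more over 0 was 5.78 (95% interval 5.01 to 6.68). Areg UMIs were found in 7.91%, 19.4% and 32.4% of these cells. In WT epithelial cells with 0 such genes Areg stood at 10.2, 2.03 and 0.687 CPM. Ereg had 4, 0 and 11 UMIs in the GOF cells with 0, 1 and 2 or more, a ratio of 4.37 (1.29 to 18.8). With cells thinned to 2000 UMIs it rested on 3 and 3 UMIs and its interval spanned 1, at 3.81 (0.510 to 28.4).

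Hbegf did not follow this order, at 1264, 1232 and 1058 CPM in cells with 0, 1 and 2 or more Wnt feedback genes. The ratio was 0.837 (0.812 to 0.862). GOF cells with 0 such genes stood far above the WT cells with 0, which held 53.2, 88.8 and 105 CPM. Erbb4 was lower in the cells with more, at 113, 86.4 and 36.3 CPM, with a ratio of 0.321 (0.278 to 0.370). Egfr was also lower, at 46.1, 37.3 and 28.7 CPM, with a ratio of 0.622 (0.522 to 0.739), and Erbb3 had a ratio of 0.808 (0.725 to 0.900). The intervals of Tgfa (0.874 to 1.21), Btc (0.854 to 1.13) and Erbb2 (0.921 to 1.28) spanned 1.

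**Figure D4:**
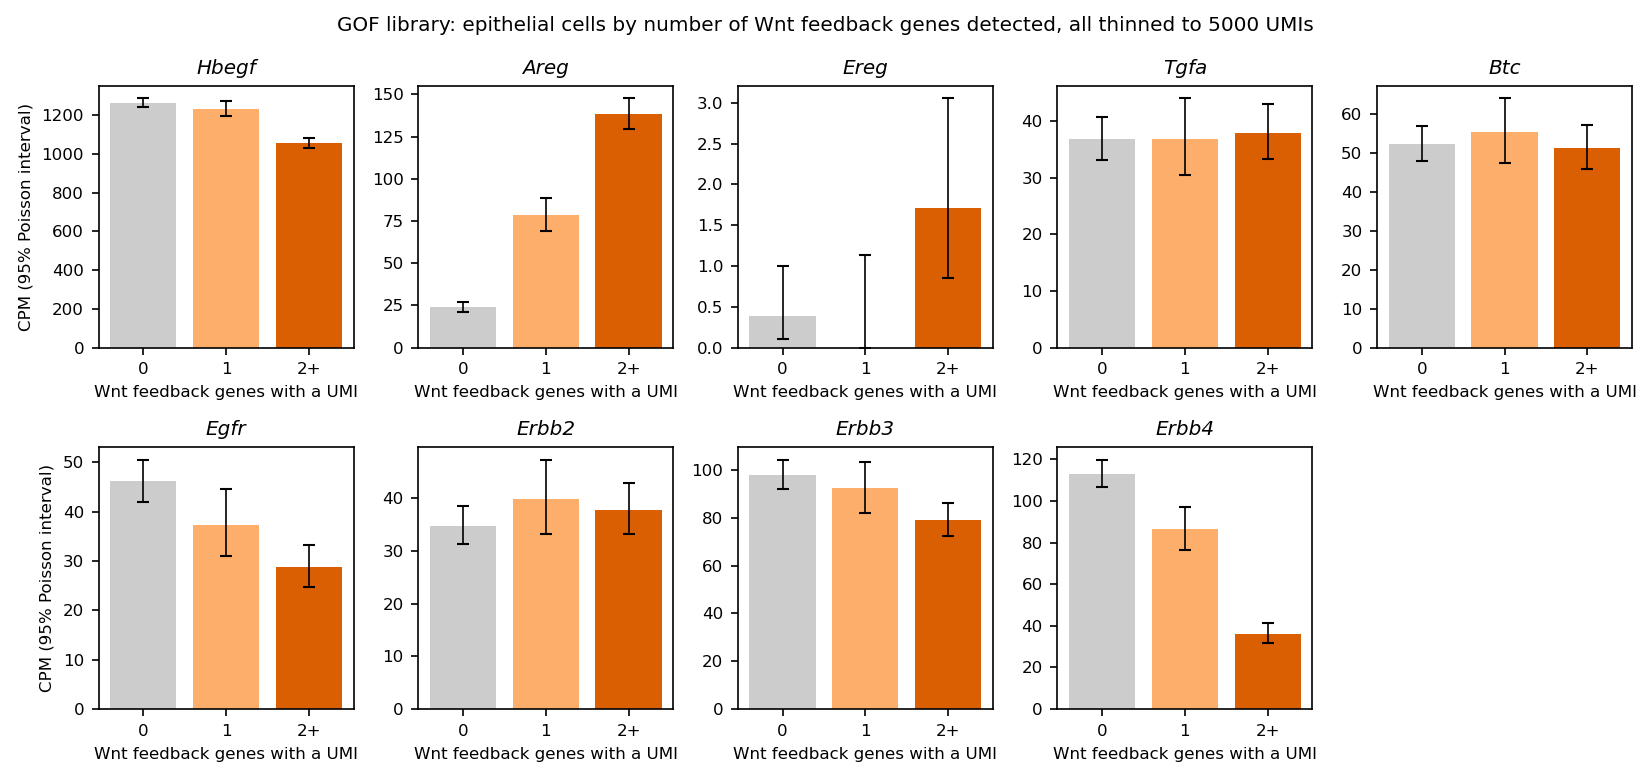
CPM of each member (y axis, bars with 95% Poisson intervals) in GOF epithelial cells with 0, 1 or 2 and more Wnt feedback genes detected (x axis), all cells thinned to 5000 UMIs. Areg climbs to 138 CPM in the cells with 2 or more, Erbb4 drops to 36.3 CPM, and Hbegf is above 1000 CPM in each group.

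The other genes of the pathway were described by lists, whose counts stand beside 11.8% of all genes tested higher and 4.24% lower in GOF epithelium. Of the 6 other EGF family ligands 4 were tested in GOF epithelium. Nrg1, a ligand of Erbb3 and Erbb4 with 1059 kb of intron, rose by 3.75 on the log2 scale (edgeR adjusted p = 0.0346). It had 173 UMIs in GOF epithelium and 6, 2 and 0 in WT. Genes with over 500 kb of intron had a median of 3.40 in that comparison. Nrg1 in fibroblasts stood at 28.2 CPM in GOF and 0, 0.737 and 14.03 CPM in WT. Nrg4, an Erbb4 ligand, was highest in tuft cells, at 255 CPM in GOF tuft cells and 171, 163 and 123 CPM in WT. In epithelium Nrg4 stood at 10.8 CPM in GOF, inside the WT values of 3.02, 11.8 and 42.5 CPM.

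Of 13 ligand release genes tested in GOF epithelium 2 rose and 1 fell, close to those shares, with a median of -0.03. Timp3, an inhibitor of Adam17 and other metalloproteases, rose by 2.89 (adjusted p = 0.0131), and the protease gene Adam12, with 338 kb of intron, rose by 5.51 (adjusted p = 0.0410). Adam9, another protease, fell by 1.27 (adjusted p = 0.0236). Of 11 receptor inhibitors 5 rose and none fell, where 11.8% of all genes rose, with a median of 0.60 against 0.00 over all genes. Errfi1, a direct inhibitor of ErbB kinases, rose by 2.10 (adjusted p = 0.00261) and Socs3, a suppressor of cytokine signalling, by 2.90 (adjusted p = 0.0200). Cblb, a ubiquitin ligase, rose by 2.15 and Ptprj, a phosphatase, by 2.01, and these hold 166 and 143 kb of intron. Of all genes with 100 to 200 kb of intron 34.5% were called higher, with a median of 0.92. The share of 11.8% is thus no match for Cblb and Ptprj, and the part of intron length in the 5 rises was not tested.

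Of 19 ERK output genes 4 rose and 1 fell in GOF epithelium, where 16.1% of all genes were called, with a median of 0.74. Those counts are not far from the share over all genes. Fosl1, an AP-1 subunit, rose by 5.07 (adjusted p = 0.00234), Dusp5, an ERK phosphatase, by 2.76 (adjusted p = 0.00602) and Emp1 by 2.39 (adjusted p = 0.0417). Etv1, a transcription factor, fell by 2.32 (adjusted p = 0.0102). Of 22 signalling core genes 4 rose and 1 fell, with a median of 0.14, which is also near the shares of 11.8% and 4.24%. The adaptor Gab2 (221 kb of intron) rose by 4.25, Gab1 (111 kb) by 1.36 and Sos1 (76.1 kb) by 0.97, and the adaptor Shc1 fell by 1.14.

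Immediate early genes, which ERK signalling and tissue dissociation are both known to raise, were also counted. Of 16 tested in GOF epithelium 5 rose and none fell by edgeR, with a median of 1.72, and 11 rose by DESeq2. Over all 15795 genes edgeR called 1868 higher and DESeq2 1965. Atf3 rose by 7.26 (adjusted p = 0.00141), Egr3 by 4.57, Egr2 by 4.27 and Dusp1 by 3.84. Hbegf, Areg and Ereg are themselves known early-response genes, and the part of dissociation in their levels was not tested.

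In fibroblasts 3.75% of all genes tested rose and 0.446% fell. There 1 of 11 ligand release genes rose (Adam12 by 5.82), 2 of 11 receptor inhibitors rose (Cblb and Ptprj, by 2.70 each), 2 of 22 signalling core genes rose (Gab2 by 4.498 and Gab1 by 2.35) and 1 of 16 immediate early genes rose (Atf3 by 4.04). Of 18 ERK output genes there 0 were called by edgeR or DESeq2 and 1 fell by limma-voom, with 4 at an unadjusted p under 0.05. Of the fibroblast genes named here, Adam12, Cblb, Ptprj, Gab2 and Gab1 hold more than 100 kb of intron. Genes with 100 to 200 kb had a median of 0.93 in fibroblasts, and the part of intron length in these rises was not tested. In macrophages 8.94% of all genes tested rose and 2.77% fell. There 0 of 9 ligand release genes were called by edgeR, with 3 at an unadjusted p under 0.05, 1 called by DESeq2 and 2 by limma-voom. Of 8 receptor inhibitors 3 rose, of 20 signalling core genes 5 and of 15 immediate early genes 6. The part of intron length in these macrophage counts was not tested. Of 12 ERK output genes in macrophages Dusp5 rose by 3.55 and Etv1 fell by 1.85.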

How the data were processed

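Raw UMI counts per gene and barcode, as deposited by the authors with barcodes already called as cells, were used for all 4 libraries. Per the file headers, the GOF counts were made with Cell Ranger 7.0.0 and the WT counts with 3.0.2, while version 7.1 and the build mm10 are named per the submitters' processing notes. No intron setting and no gene reference release is given in the sources used here. The members and gene lists were chosen with earlier results of these data known.

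Cells were kept if they had at least 500 genes and no more than 25% mitochondrial UMIs: 10078 in GOF and 4556, 2478 and 2101 in WT. A cell entered a class if at least 70% of its lineage marker UMIs and at least 2 distinct markers (4 for tuft and mesothelial cells, 3 for acinar cells and glia) were of that class. Markers of some other classes were not counted against a class, such as epithelial markers against tuft cells. These limits were set after marker counts were seen. No doublet caller was run, and cells that qualified for more than 1 class (34 in GOF and 3, 8 and 2 in WT) stayed ungated, as did 11.3% of GOF cells and 4.02%, 7.71% and 10.0% of WT cells in all. Counts of the WT libraries differed beyond sampling noise (chi-square per degree of freedom 52.3 to 119), so no pair was merged as a library deposited more than once. This does not show that they came from separate animals.

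UMIs were summed per library and class and compared with edgeR 4.0.16 in R 4.3.3 (quasi-likelihood test, TMM, filterByExpr, Benjamini-Hochberg adjustment over all genes tested, threshold 0.05). Comparisons of classes within libraries, and of effects between classes, held the library as a block. The fits were tested on simulated data. Shares carry exact Clopper-Pearson intervals, shares of 0 the limit of 3 counts over the cells, levels in 1 library exact Poisson intervals and ratios exact conditional intervals, all at 95% and covering counting error only. Cells were thinned to 2000 UMIs for shares and to 5000 for the Wnt gate, and shallower cells were left out. Intron lengths come from GENCODE M21 on GRCm38. Named genes were all members, up to 4 called genes of a list with the largest difference, and the 3 most similar genes of each member that reaches 10 CPM in a WT class. Alternatives were other scalings, no filter, DESeq2 1.42.0, limma-voom 3.58.1, other gates, a stricter cell filter (1000 genes, 10% mitochondrial), leaving out each WT library, and fits without the block.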

Additional observations from a re-analysis of the deposited data

Results flagged for a closer look

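The difference of GOF from WT was larger in epithelial than in macrophage sums for Hbegf and Btc, by 2.33 and 3.00 on the log2 scale (edgeR interaction with the library as a block). Neither call held by DESeq2, under either other gate, with the stricter cell filter or without the block, and leaving out a WT library ended it for Hbegf (WT 2) and for Btc (each of the 3). Hbegf was at 1243 CPM in GOF epithelium and 25.3 CPM in GOF macrophages, 2.03% of the epithelial level where Krt8 was 2.38%. The same test put several pathway genes apart. Against fibroblasts, the epithelial effect was larger by 2.59 for Timp3, 3.57 for Socs3, 3.67 for Fosl1 and 2.37 for Emp1, and among immediate early genes by 3.25 for Atf3, 3.44 for Egr3, 2.68 for Dusp1 and 2.57 for Nr4a1. Against macrophages, it was larger by 2.82 for Socs3, 2.76 for Ccnd1, 2.14 for Myc and 3.21 for Emp1, and by 4.92 for Atf3, 1.60 for Dusp1 and 1.71 for Nr4a1. It was smaller for the ERK inhibitor Spred1 (-1.51) and the PI3K subunits Pik3cb (-2.09) and Pik3r1 (-1.82). Of all genes tested, edgeR called 1.17% against fibroblasts and 3.58% against macrophages. Without the block 0 and 4 genes were called in all, and by DESeq2 51 and 99. The pathway genes were not followed singly through the alternatives, and the part of intron length in their differences was not tested.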

How the results depend on the processing

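Tests of single members kept their side of the threshold in 521 cases under the alternatives (in 1 of these, Ereg in epithelium, DESeq2 gave no adjusted p), passed only in the alternative in 21 and lost the threshold in 16. One reversed: the Erbb4 effect in epithelium minus macrophages was 4.84 by limma-voom (adjusted p = 0.0218) and -2.79 by edgeR, on no WT macrophage UMI. No paired analysis was possible for GOF against WT because the groups share fewer than 2 replicate numbers. With no replicate block, 3893 and 5178 genes were called between WT epithelium and WT fibroblasts or macrophages, close to the blocked counts. The interactions gave 0 and 4 genes, against 179 and 551 with the block, and no member against macrophages (0). In GOF epithelium limma-voom called 5329 genes (2537 by edgeR), and members called higher were 6 with library totals, 5 by limma-voom and 6 with TMM from short-intron genes. In GOF fibroblasts 808 genes were called with no filter, 275 by limma-voom and 786 with short-intron TMM (424 by edgeR), with 2, 0 and 2 members. Leaving out a WT library gave 407 to 1161 genes and 1 to 2 members. In GOF macrophages 1559 genes and 1 member were called with no filter and 612 genes by DESeq2 (977 by edgeR). The stricter cell filter called 2332 and 3456 genes between WT epithelium and fibroblasts or macrophages, and no filter put 2 members lower against fibroblasts. Interaction genes against fibroblasts were 51 by DESeq2, 101 with the looser gate, 47 with the stricter cell filter and 166 to 394 without 1 WT library. Against macrophages they were 99 by DESeq2, 1352 by limma-voom, 310 with the stricter cell filter and 372 to 538 without 1 WT library. Members called there were 0 by DESeq2, with either other gate and with the stricter cell filter, and 0 to 1 without 1 WT library. Levels under the looser gate moved in 11 of 54 cases, shares without thinning in 44 of 72, and Wnt gate ratios at 2000 in place of 5000 UMIs in 4 of 9. Of these, Hbegf was then 0.806, Tgfa 0.861, Erbb2 0.904 and Erbb4 0.218. WT 3 was the shallowest library and limits shares and rare classes.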
